A study of Rattus norvegicus with 6 samples.

Results

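Hepatocyte identity transcription factors are the small set of DNA-binding proteins that keep liver parenchymal cells expressing their own genes. The 9 genes described here, Hnf4a, Foxa1, Foxa2, Foxa3, Cebpa, Cebpb, Nr1i2, Nr1i3 and Prox1, were taken by symbol from a table of 20104 genes, and all 9 were found once each. They were measured by RNA sequencing in rat liver collected 14 days after a liver trauma. For 3 libraries the dressing was AKOC, and for 3 it was Quik-clot, a commercial haemostatic dressing that served as the control. The labels do not expand AKOC; the series title concerns kaolin scales anchored on cotton. Both groups carried the injury, and no uninjured liver was among the samples. Strain, sex, age and the hour of collection are not given in the labels. Whether each library is another animal is likewise unstated, and the p-values below therefore rest on a spread that may not be the spread between animals. That spread exceeded sampling noise (chi-square per degree of freedom 142 to 396 between replicates of a dressing).

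These factors act as a network in which the members regulate each other's genes as well as the genes of hepatocyte function. HNF4A is a nuclear receptor that sustains much of the adult hepatocyte programme, the FOXA proteins open chromatin at liver enhancers, and C/EBPα and C/EBPβ are leucine zipper proteins that bind the same DNA element in the resting and in the injured or inflamed liver. PXR (from Nr1i2) and CAR (from Nr1i3) sense foreign compounds and bile acids and act on DNA together with RXRA. PROX1 is a homeobox protein of hepatocytes that can restrain HNF4A and is also a defining protein of lymphatic endothelium.

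Library totals ran from 40402312 to 41455378 counts. The smallest count of any member in a library was 388 (Foxa2), so that counting error alone was at most 5.08% of a value; this covers counting error only. Levels below are CPM, counts scaled to 1000000 per library after TMM scaling of the library sizes, unless FPKM is named. FPKM is scaled to the library total and to transcript length, without TMM scaling. Hepatocyte markers were high in every library: the 8 markers Alb, Apoa1, Ttr, Tf, Ahsg, Cps1, Fgb and Serpina1 summed to 128200 to 192100 CPM after AKOC, and 112700 to 172100 CPM in Quik-clot livers, with 4 positive and 4 negative log2 fold changes. Albumin alone took 7.94% to 11.7% of the counts after AKOC and 7.02% to 8.14% after Quik-clot. These are whole-tissue samples, in which fewer cells of a type and less RNA per cell cannot be told apart.

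All 9 members were well above the low-count filter. Per transcript length, Hnf4a was the most abundant, at a mean of 87.1 FPKM over the 6 libraries (range 59.5 to 113), which ranked it 631 among 13167 protein-coding genes tested. Cebpa (47.1 FPKM), Cebpb (43.8 FPKM) and Nr1i2 (43.0 FPKM) formed a second tier whose ranges overlapped. Cebpa exceeded Cebpb in 3 of 6 libraries and Cebpb exceeded Nr1i2 in 4 of 6, so these neighbours did not differ beyond their spread. Nr1i3 (13.3 FPKM), Foxa3 (12.8 FPKM) and Prox1 (9.58 FPKM) came next, again with overlapping ranges. Foxa2 (5.56 FPKM) and Foxa1 (5.13 FPKM) were lowest, Foxa2 being the higher of the pair in 3 of 6 libraries. The steps that held in 6 of 6 libraries were Hnf4a over Cebpa, Nr1i2 over Nr1i3, and Prox1 over Foxa2.

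**Figure D1:**
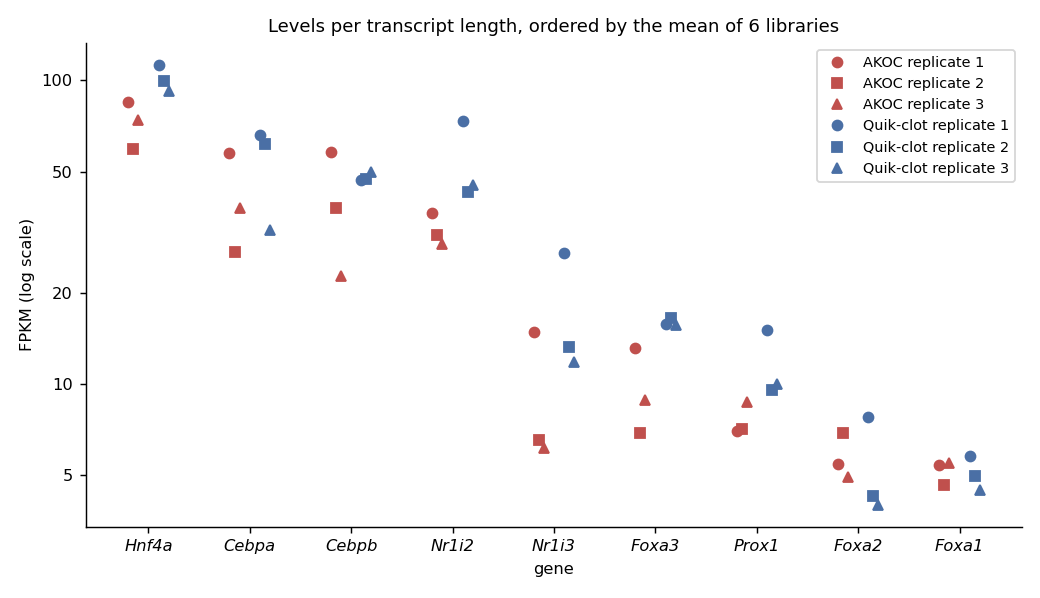
Level of each factor per transcript length (FPKM, log axis) in each library; red points are AKOC and blue points Quik-clot libraries, with circle, square and triangle for replicates 1, 2 and 3. Genes are ordered by the mean of 6 libraries, from Hnf4a at 87.1 FPKM to Foxa1 at 5.13 FPKM.

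The dressings were compared to ask whether these factors differ between livers treated with AKOC and with Quik-clot. Of the 9 members, 7 had a lower fitted level after AKOC, with Nr1i3, Foxa3, Nr1i2, Prox1 and Hnf4a showing the largest differences, while Foxa1 and Foxa2 had slightly higher ones. None passed the edgeR quasi-likelihood test after Benjamini-Hochberg adjustment over 13872 genes, where 0.0% of genes were called; DESeq2, which called 2.02% of genes (0.679% lower and 1.34% higher), and limma-voom also called 0 of the 9. At an unadjusted edgeR p under 0.05 there were 5 members, all lower after AKOC, against 5.69% of all genes tested that were lower at the same p, 6.78% that were higher and 12.5% in either direction. The median log2 fold change of the 9 was -0.41, beside -0.015 over all genes tested, of which 52.0% had a negative value. In 3 members (Hnf4a, Foxa3 and Nr1i2) every AKOC library lay below every Quik-clot library, against 8.84% of all genes tested; the reverse held for 0 members and 9.53% of genes. The 9 genes were chosen with earlier results of these data known, so the counts are a description. The count at an unadjusted p under 0.05 was 2 without AKOC replicate 2 (Foxa3 and Nr1i2) and 3 without Quik-clot replicate 1 (these and Hnf4a).

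**Figure D2:**
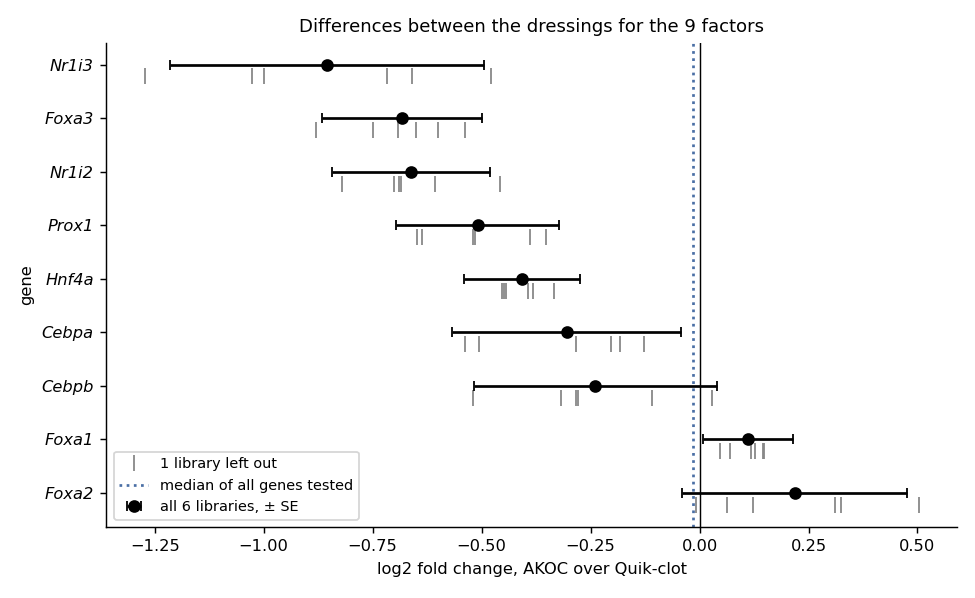
Log2 fold change of each factor, AKOC over Quik-clot, with all 6 libraries (black point, bar ± SE) and with 1 library left out at a time (grey ticks). Nr1i3 has the lowest value, -0.86, and the widest bar; Foxa1 and Foxa2 are on the positive side, and the dotted line is the median of all genes tested, -0.015.

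Hnf4a encodes hepatocyte nuclear factor 4 alpha. It had 372, 311 and 369 CPM in AKOC replicates 1, 2 and 3, against 474, 439 and 483 CPM in Quik-clot replicates 1, 2 and 3. The groups did not overlap, and the lowest value was that of AKOC replicate 2. Means were 350.7 ± 34.5 CPM after AKOC, and 465 ± 23.2 CPM in Quik-clot livers (SD, n = 3 each), a log2 fold change of -0.41 ± 0.13 (SE; edgeR adjusted p = 0.334). It varied little between libraries of a dressing, with a coefficient of variation of 9.82% within AKOC and 4.99% within Quik-clot. The log2 fold change lay between -0.49 and -0.33 in all 16 alternative settings. RefSeq lists 2 transcription starts for rat Hnf4a, and a count per gene cannot separate them.

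The 250 bases before and 50 bases after a start were available in the RefSeq promoter table (GRCr8 build, given here only to locate the sequence, since the deposited counts were made on mRatBN7.2) for 7 of the 9 members, with Foxa1 and Prox1 without an entry. They were searched on both strands for short elements bound by the members or by other factors of the liver. For HNF4A the letters were CAAAGTCCA, which 0.391% of 33469 promoters in the table held at least once. For FOXA they were TGTTTAC (3.78%) and its variant TATTTAC (3.51%), and for C/EBP they were TTGCNNAA (10.6%). The letters GTTAAT (7.45%) were also searched, and the TATA box was TATAAA (14.2%). The E-box was CACGTG (6.42%), the D-box was TTANGTAA (2.24%), and the ROR element was AGGTCA (16.2%). The promoters shown were picked by expression, as those of the 3 members whose dressings did not overlap. For Hnf4a it is the window that held a match. Windows of other members held matches too, as given below. Capitals mark a match, and each sequence runs in the direction of transcription.
Hnf4a, downstream start, chr3:172641586-172641885, plus strand: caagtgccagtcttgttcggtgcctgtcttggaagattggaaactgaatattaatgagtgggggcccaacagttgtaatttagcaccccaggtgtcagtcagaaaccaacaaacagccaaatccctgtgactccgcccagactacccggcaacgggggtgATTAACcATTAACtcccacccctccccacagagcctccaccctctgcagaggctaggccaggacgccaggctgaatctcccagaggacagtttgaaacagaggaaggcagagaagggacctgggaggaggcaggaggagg
Foxa3, chr1:87799436-87799735, minus strand: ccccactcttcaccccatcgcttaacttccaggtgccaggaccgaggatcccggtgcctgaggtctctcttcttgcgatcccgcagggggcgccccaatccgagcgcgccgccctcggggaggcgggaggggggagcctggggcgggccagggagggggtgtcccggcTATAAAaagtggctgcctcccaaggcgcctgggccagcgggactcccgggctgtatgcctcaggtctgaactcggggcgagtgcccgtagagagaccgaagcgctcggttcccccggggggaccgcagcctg
Nr1i2, chr11:75965467-75965766, plus strand: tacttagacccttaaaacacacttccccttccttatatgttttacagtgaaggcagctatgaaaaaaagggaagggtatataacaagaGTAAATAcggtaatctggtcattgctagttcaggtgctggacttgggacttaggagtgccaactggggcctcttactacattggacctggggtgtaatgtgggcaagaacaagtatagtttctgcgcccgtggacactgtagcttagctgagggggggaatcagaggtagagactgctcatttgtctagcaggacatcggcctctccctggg
In the Hnf4a window the capitals are 2 matches to GTTAAT on the reverse strand, whose first bases lie 90 and 83 bases before the start with 1 base between them. In the Foxa3 window they are TATAAA, 82 bases before the start, and in the Nr1i2 window the FOXA element TATTTAC on the reverse strand, 162 bases before the start. The upstream Hnf4a window and that of Nr1i3 held none of the 9 elements, those of Cebpa and Cebpb held TATAAA at 35 and 33 bases before the start, and that of Foxa2 held TATAAA on both strands in overlapping matches, the only overlap found. None of the windows held the C/EBP, D-box, E-box, ROR or HNF4A letters. A match describes letters in a window and is no evidence of binding.

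The 3 Foxa genes encode forkhead proteins that recognise the same element, and their values differed in pattern. Foxa3, on average the paralog with the highest level per length here, had 26.6, 16.6 and 20.3 CPM in AKOC replicates 1, 2 and 3, against 30.7, 33.4 and 37.7 CPM in Quik-clot replicates 1, 2 and 3. All 3 AKOC values lay below all 3 Quik-clot values, with AKOC replicate 1 the nearest. The mean was 21.2 ± 5.07 CPM in AKOC livers and 34.0 ± 3.54 CPM in Quik-clot livers (SD, n = 3 each), with a log2 fold change of -0.68 ± 0.18 (SE; edgeR adjusted p = 0.305), 37.7% lower. Its adjusted p was 0.0626 with DESeq2, the smallest of any alternative, over a range up to 0.644.

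Foxa1 had 49.6, 50.8 and 57.2 CPM in the AKOC libraries and 50.9, 45.9 and 49.1 CPM in the Quik-clot libraries. The groups overlapped, and no member varied less: the coefficient of variation over the 6 libraries was 7.33%, lower than in all but 7.57% of genes tested. Its log2 fold change was 0.11 ± 0.10 (SE; edgeR adjusted p = 0.668).

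Foxa2 had 11.9, 18.1 and 12.3 CPM in the AKOC libraries and 16.5, 9.42 and 10.5 CPM in the Quik-clot libraries. A single library was high in each group, AKOC replicate 2 and Quik-clot replicate 1. The log2 fold change of 0.22 ± 0.26 (SE; edgeR adjusted p = 0.744) was -0.009 without AKOC replicate 2. FOXA1 and FOXA2 are also made by bile duct cells. The 6 cholangiocyte markers summed to 15.7, 17.9 and 20.7 CPM in AKOC replicates 1, 2 and 3, mostly Epcam (8.99 to 16.04 CPM over the 6 libraries). In Quik-clot replicates 1, 2 and 3 they summed to 25.3, 14.1 and 21.0 CPM, highest in replicate 1. AKOC replicate 2, which had the highest Foxa2, was not the highest AKOC library for these markers. Of the 5 that could be tested, 4 had a negative log2 fold change (median -0.61). Spp1 had 1.12, 2.30 and 1.17 CPM after AKOC against 4.44, 2.87 and 4.32 CPM after Quik-clot, without overlap (log2 fold change -1.34 ± 0.34; edgeR adjusted p = 0.295). Krt7 was at 0 in AKOC replicates 2 and 3 and at 0.0871 CPM or below in the others. The part of bile duct RNA in the Foxa1 and Foxa2 values was not tested.

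Because the Foxa values can be set against each other per length within a library, the share of Foxa3 in the summed FPKM of the 3 genes needs no scaling between libraries. Foxa3 made up 54.8%, 37.3% and 45.9% in AKOC replicates 1, 2 and 3 and 53.7%, 64.0% and 64.8% in Quik-clot replicates 1, 2 and 3. AKOC replicate 1 lay above Quik-clot replicate 1, so the groups overlapped in this measure. The mean was 46.0% ± 8.75 after AKOC and 60.9% ± 6.17 after Quik-clot (SD, n = 3 each), a difference of -14.9 percentage points (exact permutation test, two-sided, p = 0.2, where 0.1 is the smallest p that 3 against 3 allows). As a share of summed CPM, which is not scaled to length, the difference was -11.8 percentage points and the dressings did not overlap (exact permutation test, two-sided, p = 0.1).

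**Figure D3:**
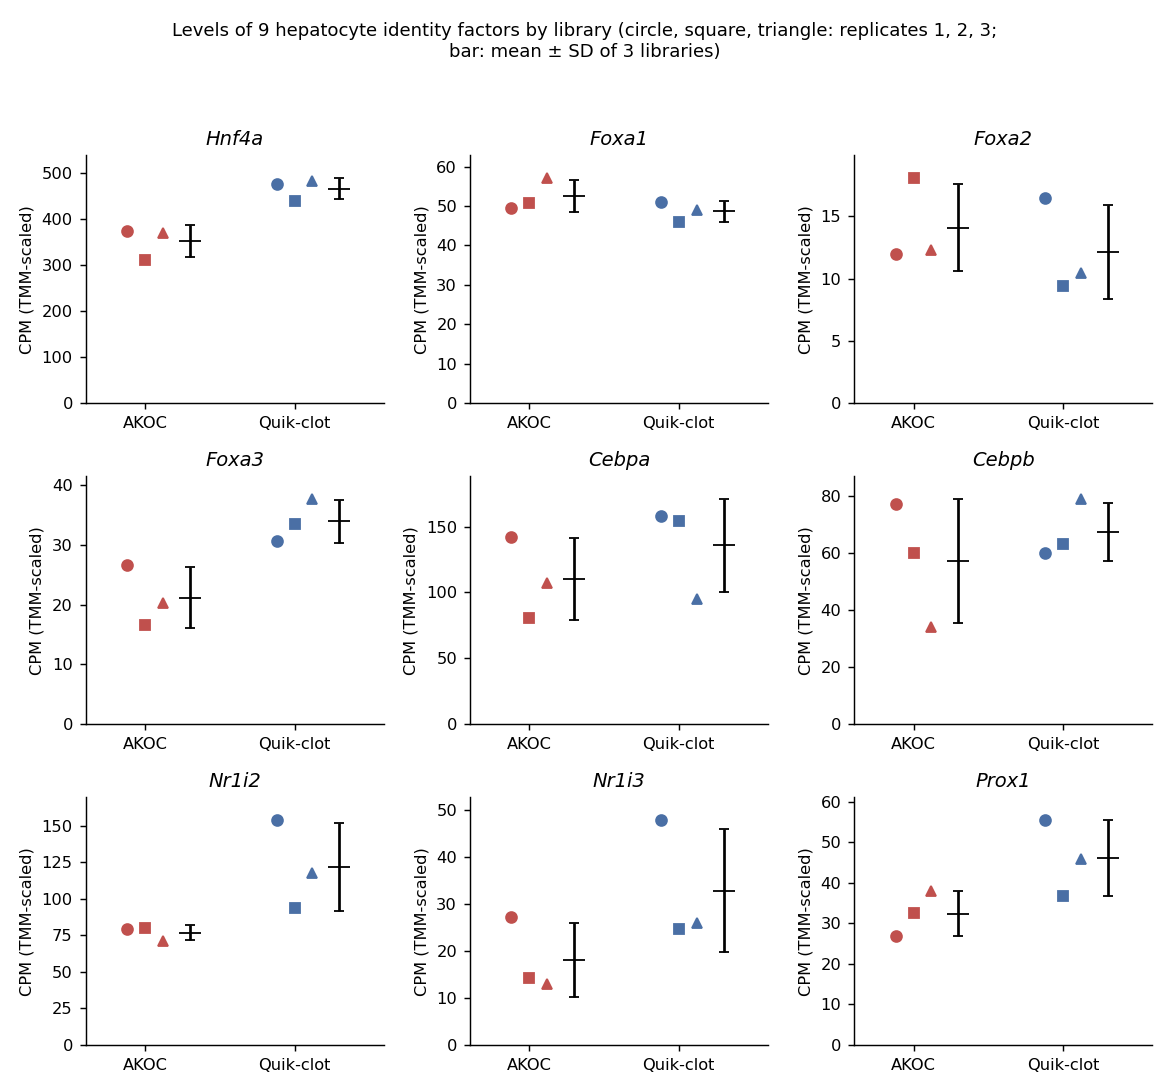
CPM after TMM scaling of each of the 9 factors in each library, AKOC in red and Quik-clot in blue, with circle, square and triangle for replicates 1, 2 and 3 and a bar for the mean ± SD of 3 libraries; each vertical axis starts at 0. The dressings do not overlap for Hnf4a, Foxa3 and Nr1i2, and Quik-clot replicate 1 has the highest Nr1i2, Nr1i3, Prox1 and Cebpa.

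The xenobiotic receptor genes Nr1i2 and Nr1i3 both had their highest value in Quik-clot replicate 1. Nr1i2 had 79.2, 80.3 and 71.1 CPM in AKOC replicates 1, 2 and 3, against 154, 93.6 and 117 CPM in Quik-clot replicates 1, 2 and 3. The AKOC values lay close together, with a coefficient of variation of 6.51% against 25.0% within Quik-clot, and all were below the Quik-clot values. The mean was 76.9 ± 5.01 CPM in AKOC livers and 122 ± 30.4 CPM in Quik-clot livers (SD, n = 3 each), a log2 fold change of -0.66 ± 0.18 (SE; edgeR adjusted p = 0.306), or 36.8% lower. Without Quik-clot replicate 1 the log2 fold change was -0.46.

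Nr1i3 had 27.1, 14.3 and 12.9 CPM in AKOC replicates 1, 2 and 3 and 47.8, 24.5 and 25.9 CPM in Quik-clot replicates 1, 2 and 3. The first library of each dressing was high, and AKOC replicate 1 lay above Quik-clot replicates 2 and 3, so the groups overlapped. Nr1i3 was the most variable member, with a coefficient of variation of 49.3% over the 6 libraries, higher than in 88.2% of genes tested. Its log2 fold change was -0.86 ± 0.36 (SE; edgeR adjusted p = 0.396), and it was -0.48 without Quik-clot replicate 1. Rxra, which encodes the shared DNA-binding partner of both receptors, had 289.6, 374 and 352 CPM after AKOC, and 371, 403 and 425 CPM in Quik-clot livers (log2 fold change -0.24 ± 0.14; edgeR adjusted p = 0.514); it was chosen for mention after its values were seen.

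Genes that PXR and CAR are known to act on lay on both sides. Of 31 tested, 15 had a negative and 16 a positive log2 fold change, with a median of 0.07. At an unadjusted edgeR p under 0.05 there were 6 lower and 4 higher after AKOC, against 5.69% and 6.78% of all genes tested, and 0 passed the adjusted threshold. Cyp2c7, a drug-metabolising cytochrome P450, had 2701, 5587 and 3811 CPM after AKOC against 1179, 1447 and 1161 CPM after Quik-clot (log2 fold change 1.68 ± 0.34; edgeR adjusted p = 0.279), and the groups did not overlap. Por, the reductase that passes electrons to the P450 enzymes, had 127, 97.0 and 67.3 CPM after AKOC against 194, 187 and 288 CPM after Quik-clot (log2 fold change -1.20 ± 0.26; edgeR adjusted p = 0.281). The stress-induced Gadd45b had -1.48 ± 0.38 and Cyp3a62 -1.48 ± 0.41 as log2 fold changes, both at low levels (at most 11.1 and 18.6 CPM in any library). Without Quik-clot replicate 2, in which Cyp3a2 stood at 5764 CPM against 802 and 780.0 CPM in Quik-clot replicates 1 and 3, the count at an unadjusted p under 0.05 was 7 lower and 11 higher; without Quik-clot replicate 1 it was 5 lower and 1 higher. Reads of the Cyp2b, Cyp2c and Cyp3a genes may be shared between near-identical copies, so their values are uncertain.

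The C/EBP pair showed no separation of the dressings. Cebpa had 142, 80.2 and 107 CPM in AKOC replicates 1, 2 and 3 and 158, 154 and 95.1 CPM in Quik-clot replicates 1, 2 and 3. The lowest values were those of AKOC replicate 2 and Quik-clot replicate 3. The log2 fold change was -0.31 ± 0.26 (SE; edgeR adjusted p = 0.643), and it ranged from -0.54 to -0.13 with 1 library left out. Cebpb had 77.3, 60.1 and 34.1 CPM in the AKOC libraries and 60.0, 63.4 and 79.1 CPM in the Quik-clot libraries. AKOC replicate 3 stood below all the others, and without it the log2 fold change of -0.24 ± 0.28 (SE; edgeR adjusted p = 0.739) became 0.03.

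The balance of the 2 proteins is often followed in liver because C/EBPβ takes over from C/EBPα in inflammation and regeneration. The FPKM of Cebpb over that of Cebpa was 1.01, 1.40 and 0.595 in AKOC replicates 1, 2 and 3 and 0.709, 0.766 and 1.55 in Quik-clot replicates 1, 2 and 3. The ratio was highest in Quik-clot replicate 3 and AKOC replicate 2, 1 library of each dressing. On the log2 scale the means were -0.08 ± 0.62 after AKOC and -0.08 ± 0.62 after Quik-clot (SD, n = 3 each), a difference of -0.000173 (exact permutation test, two-sided, p = 1.0, smallest possible p 0.1). With 1 library left out the difference ranged from -0.28 to 0.36. This range is not a limit on the shift that may be present. With an SD of 0.62 within each dressing, larger shifts in either direction are also unresolved.

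The median of the acute phase genes, which respond to interleukin signals in hepatocytes, was highest in the same 2 libraries, but single genes departed from it. The median of 18 such genes, as log2 CPM centred on each gene's mean, was -0.24, 0.37 and -0.44 in AKOC replicates 1, 2 and 3 and -0.59, -0.25 and 0.92 in Quik-clot replicates 1, 2 and 3. Of the 18, 16 had a negative and 2 a positive log2 fold change (median -0.27), and 0 passed the adjusted edgeR threshold. Over all genes tested 52.0% were negative, and a departure from that share was not tested. A2m, the rat acute phase protein alpha-2-macroglobulin, stood at 9.14, 86.7 and 91.5 CPM after AKOC, and 5.29, 32.0 and 2403 CPM in Quik-clot livers. Orm1, another acute phase protein, stood at 1811, 8359 and 791 CPM after AKOC, and 823, 1737 and 11304 CPM in Quik-clot livers, and Hp (haptoglobin) was likewise highest in AKOC replicate 2 and Quik-clot replicate 3. The iron hormone gene Hamp went the other way, at 177, 63.8 and 27.2 CPM after AKOC, and 822, 460.4 and 56.7 CPM in Quik-clot livers. Il6r, a receptor chain for interleukin 6, was highest in Quik-clot replicate 1 at 151 CPM, and A2m was slightly higher in AKOC replicate 3 than in AKOC replicate 2. Cebpd, another family member induced in the acute phase, stood at 8.19, 6.14 and 2.95 CPM after AKOC, and 4.20, 8.11 and 17.6 CPM in Quik-clot livers, so that AKOC replicate 1 and not replicate 2 was the highest of the AKOC libraries. These genes were chosen for mention after their values were seen, and the part of the acute phase state in the Cebpa values was not tested.

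**Figure D4:**
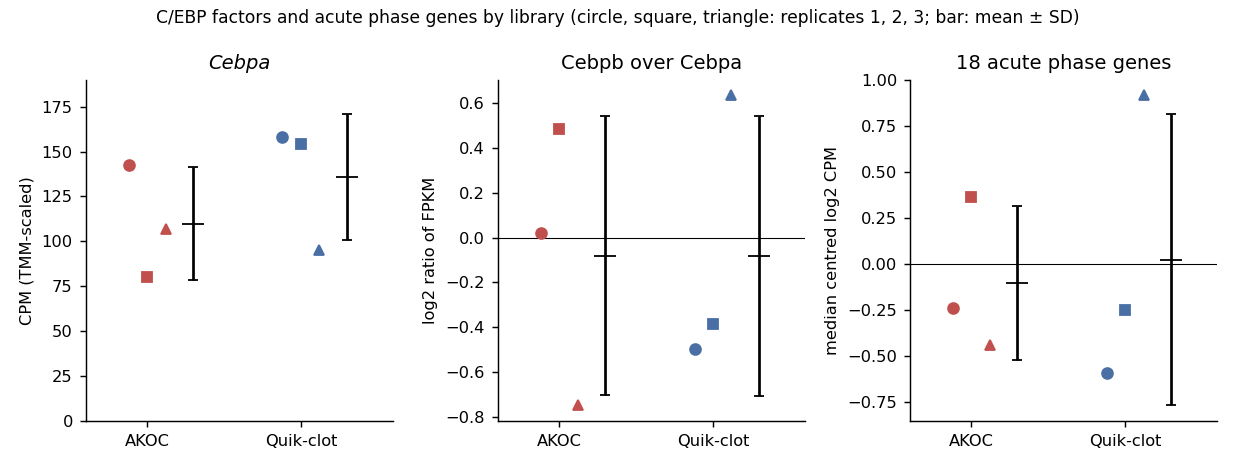
Cebpa (CPM, axis from 0), the log2 ratio of Cebpb to Cebpa (FPKM) and the median centred log2 CPM of 18 acute phase genes in each library, AKOC in red and Quik-clot in blue, with circle, square and triangle for replicates 1, 2 and 3 and a bar for the mean ± SD. AKOC replicate 2 and Quik-clot replicate 3 have the lowest Cebpa, the highest ratio and the highest acute phase median.

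Prox1 had 26.8, 32.5 and 37.9 CPM in AKOC replicates 1, 2 and 3 and 55.6, 36.9 and 45.9 CPM in Quik-clot replicates 1, 2 and 3. AKOC replicate 3 lay just above Quik-clot replicate 2, which was the only overlap. The mean was 32.4 ± 5.58 CPM in AKOC livers and 46.1 ± 9.35 CPM in Quik-clot livers (SD, n = 3 each), a log2 fold change of -0.51 ± 0.19 (SE; edgeR adjusted p = 0.365). Without Quik-clot replicate 1 the log2 fold change was -0.35 and without AKOC replicate 1 it was -0.39. Of 5 lymphatic endothelial markers, 4 were tested, 3 with a negative and 1 with a positive log2 fold change. They summed to 98.4 to 114 CPM after AKOC, and 117 to 138 CPM in Quik-clot livers, most of it Lyve1 (81.1 to 86.3 CPM after AKOC, and 95.8 to 108 CPM in Quik-clot livers), which sinusoidal endothelium also makes. Pdpn, a marker that sinusoids lack, was at 0.0267 to 0.130 CPM after AKOC, and 0.0270 to 0.0917 CPM in Quik-clot livers. Flt4 had 9.97, 12.1 and 11.2 CPM after AKOC, and 22.4, 12.1 and 19.97 CPM in Quik-clot livers. Which endothelial cells the Flt4 RNA came from was not tested. Lyve1 and Flt4 were on the negative side, and the positive marker was Ccl21 or Mmrn1, whose values are not given here. The 5 sinusoidal endothelial markers summed to 436.5, 390.0 and 368 CPM after AKOC, and 451, 408 and 502 CPM in Quik-clot livers, all 5 with a negative log2 fold change (median -0.22). The part of endothelial RNA in the Prox1 values was not tested.

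Seen library by library, the members followed a shared profile only in part. The median of the 9 centred log2 CPM values was -0.02, -0.25 and -0.15 in AKOC replicates 1, 2 and 3 and 0.37, 0.07 and 0.26 in Quik-clot replicates 1, 2 and 3. All AKOC values were below all Quik-clot values, and AKOC replicate 1 and Quik-clot replicate 2 were the nearest to each other. This was not particular to the members. The median of 34 other hepatocyte factors was -0.10, -0.07 and -0.11 after AKOC against 0.18, 0.04 and 0.02 after Quik-clot. The median of the lymphatic endothelial markers did not overlap either, whereas those of the target gene lists below did. Quik-clot replicate 1 had the highest level of 4 members (Cebpa, Nr1i2, Nr1i3 and Prox1) and Quik-clot replicate 3 that of 3 (Hnf4a, Foxa3 and Cebpb). AKOC replicate 2 had the lowest Hnf4a, Foxa3 and Cebpa, and AKOC replicate 3 the lowest Cebpb, Nr1i2 and Nr1i3.

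Of 34 other transcription factors and cofactors of the hepatocyte that were tested, 24 had a negative log2 fold change, with a median of -0.14; 5 were lower and 1 was higher at an unadjusted edgeR p under 0.05, and 0 passed the adjusted threshold. Over all genes tested 5.69% were lower and 6.78% higher at that p. Nfia, a nuclear factor I protein, had 72.5, 63.2 and 55.5 CPM after AKOC against 107, 80.8 and 108 CPM after Quik-clot (log2 fold change -0.63 ± 0.16; edgeR adjusted p = 0.295). Nr5a2, which encodes the bile acid and lipid regulator LRH-1, had 48.0, 56.2 and 51.3 CPM after AKOC against 67.4, 65.5 and 71.1 CPM after Quik-clot (log2 fold change -0.39 ± 0.10; edgeR adjusted p = 0.296). Tbx3, a repressor found around the central vein, had -1.14 ± 0.32, and Onecut2, a developmental liver factor, -0.43 ± 0.13 as log2 fold changes. None of these 4 overlapped between the dressings; in the whole list 7 were lower and 1 higher without overlap, against 8.84% and 9.53% of all genes tested. The fifth lower gene was the fatty acid sensor Ppara (-0.64 ± 0.21) and the higher one was the homeobox gene Hhex (0.28 ± 0.11), neither overlapping and both named after their values were seen.

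Genes that HNF4A, the C/EBP proteins and the FOXA proteins are known to act on were placed on both sides, and 0 passed the adjusted threshold in edgeR. Of 34 HNF4A targets, 17 had a negative log2 fold change (median 0.006). At an unadjusted edgeR p under 0.05, 3 were lower and 2 higher, beside 5.69% lower and 6.78% higher of all genes tested. Pklr, the liver pyruvate kinase, had 1.82 ± 0.34 and the apolipoprotein gene Apoa4 1.58 ± 0.44 as log2 fold changes, while Cyp8b1, the sterol hydroxylase of cholic acid synthesis, had -0.96 ± 0.26; the other 2, both lower, were Nr1i2 and Nr1i3 themselves. Without Quik-clot replicate 2 the HNF4A targets gave 6 lower and 4 higher.

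Of 27 C/EBP targets, 18 had a negative log2 fold change (median -0.13), with 3 lower and 2 higher at an unadjusted edgeR p under 0.05. Over all genes 52.0% were negative, 5.69% lower and 6.78% higher at that p. Whether this list departs from those shares was not tested. Arg1, the last enzyme of the urea cycle, had 733, 667 and 689 CPM after AKOC against 1284, 924 and 1118 CPM after Quik-clot (log2 fold change -0.67 ± 0.18; edgeR adjusted p = 0.305). Glycogen synthase Gys2 had -0.58 ± 0.16 and the iron hormone gene Hamp -2.32 ± 0.98 (named after its value was seen), whereas the lipogenic genes Scd (5.29 ± 0.89) and Fasn (0.73 ± 0.30) were on the other side. Of 22 FOXA targets, 13 had a negative log2 fold change (median -0.16), with 2 lower and 1 higher at an unadjusted edgeR p under 0.05. The same shares of all genes stand beside these counts, and a departure from them was likewise not tested. The glucose transporter gene Slc2a2 had 299.7, 312 and 302 CPM after AKOC against 511, 365 and 489.5 CPM after Quik-clot (log2 fold change -0.58 ± 0.16; edgeR adjusted p = 0.305). The transferrin receptor gene Tfrc had -0.40 ± 0.12, the fetal protein gene Afp 0.86 ± 0.25, and the bile acid ligase gene Slc27a5 -0.54 ± 0.25, the last outside an unadjusted edgeR p of 0.05. The lists share members, so their counts are not separate.

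**Figure D5:**
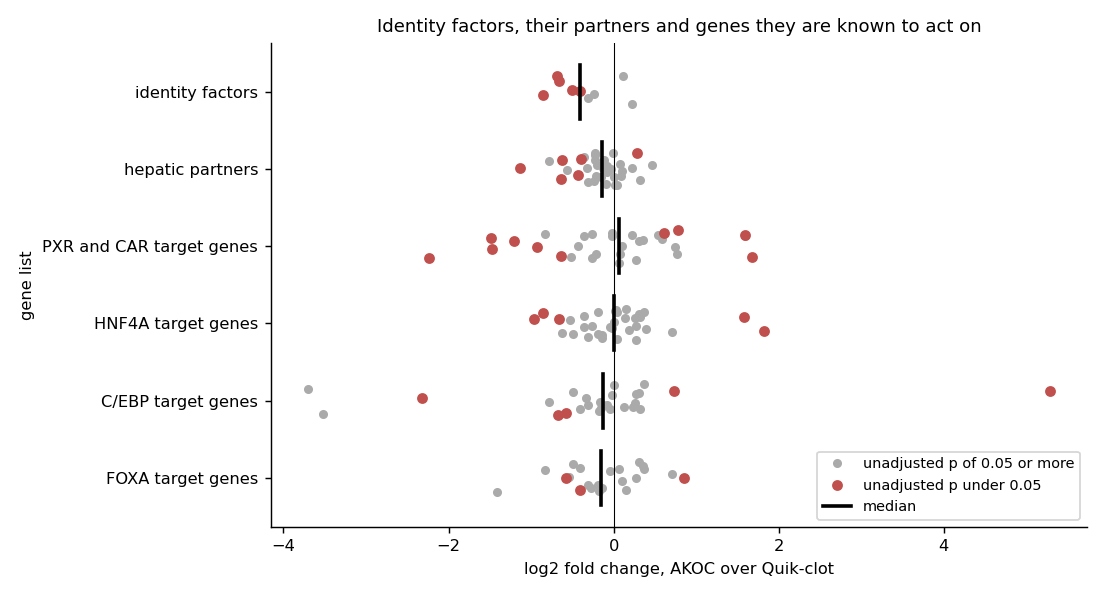
Log2 fold change, AKOC over Quik-clot, of each gene in 6 lists; red points have an unadjusted edgeR p under 0.05, grey points do not, and the black bar is the list's median. The identity factors have a median of -0.41, their partners -0.14, and the 4 target lists lie between -0.16 and 0.07 with red points on both sides.

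For the 3 members with the smallest p, the genes most like them over the 6 libraries were found by the root mean square difference of centred log2 CPM, among 11347 protein-coding genes with an established symbol and a mean of at least 1 CPM. Foxa3 was closest to Traf3ip1 (0.077), Polr1b (0.092) and Tns2 (0.103), against a spread of its own of 0.412. Nr1i2 was closest to Tmem201 (0.062), Nhlrc2 (0.071) and Tent4a (0.078), against a spread of 0.383. Nhlrc2, for one, had 24.1, 22.9 and 22.7 CPM after AKOC, and 48.8, 31.1 and 35.1 CPM in Quik-clot livers, with Quik-clot replicate 1 highest as for Nr1i2. Hnf4a was closest to Cdc25a (0.042), Rbm25l1 (0.043) and She (0.045), against a spread of 0.226. With 6 libraries many genes can share a profile, and no member was among the nearest 3 of another.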

How the data were processed

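Whole-liver RNA of 6 samples, 3 per dressing by the sample titles, was sequenced. The authors deposited whole-number read counts per gene, unnormalized, and FPKM for the same genes. The submitters' processing notes name fastp, HISAT2, HTSeq and the mRatBN7.2 build; not given in the sources used here: tool versions, annotation and strandedness of counting. The deposited FPKM equal count over transcript length and library total (largest relative error 8.58e-07), so they carry no TMM scaling.

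Counts were tested with the edgeR 4.0.16 quasi-likelihood F test (R 4.3.3; filterByExpr, minimum count 10 and total 15; TMM factors 0.902 to 1.12), two-sided, dressing as the only term, Benjamini-Hochberg over 13872 genes, called at an adjusted p under 0.05. SE is the log2 fold change over the square root of F. Ratios within a library used exact permutation tests (SciPy 1.17.1). Alternatives used DESeq2 1.42.0 and limma 3.58.1, other scalings and filters, log2(FPKM + 1) and log2(FPKM + 0.1), a replicate block, and leaving out each library. Between replicates of a dressing, counts differed by more than sampling noise (chi-square per degree of freedom 142 to 396).

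The members and gene lists were chosen with earlier results of these data known. All members are named, with up to 4 genes of smallest p per companion list and the 3 genes most like each of 3 members.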

Additional observations from a re-analysis of the deposited data

How the results depend on the processing

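No member passed the adjusted threshold in any of the 16 alternative settings, so the count of called members stayed at 0. Over all genes edgeR called 0; DESeq2 called 280 (94 lower, 186 higher), the replicate block 1, and leaving out 1 library 0 to 18. Members at an unadjusted p under 0.05 numbered 2 to 5 with 1 library left out and 4 or 5 under the other settings. Hnf4a, Foxa3, Cebpa, Nr1i2, Nr1i3 and Prox1 were negative and Foxa1 positive in all 16 settings. Foxa2 was -0.009 to 0.503 and Cebpb -0.519 to 0.028 with 1 library left out, and the log2 ratio of Cebpb to Cebpa differed by -0.283 to 0.358. The cause of these reversals was not tested.

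Of all genes at an unadjusted p under 0.05, 45.6% were lower after AKOC (790 lower, 941 higher); with library totals only it was 62.4% (750 and 452), with log2(FPKM + 1) 58.5% (659 and 467) and with log2(FPKM + 0.1) 57.4% (659 and 490).

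Same-numbered libraries did not deviate together (correlations across genes -0.072, -0.082 and -0.201, and no library correlated best with its own number), so the numbers were not taken as pairs. With the replicate block 4 members had an unadjusted p under 0.05, without Prox1, and their lowest edgeR adjusted p was 0.33 (Nr1i3). The blocked difference was -0.000173 for the Cebpb to Cebpa log2 ratio and -14.9 percentage points for the Foxa3 share, with an exact sign-flip test that cannot go below 0.25.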

Other observations

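Markers of other liver cells, chosen with the other lists, were set beside the members' libraries as values. The 6 Kupffer cell and macrophage markers summed to 681, 716 and 476 CPM after AKOC, and 584, 878.5 and 738 CPM in Quik-clot livers, all 6 with a negative log2 fold change (median -0.28). The 4 neutrophil markers summed to 39.9, 27.0 and 10.5 CPM after AKOC, and 5.68, 15.98 and 101 CPM in Quik-clot livers, highest in Quik-clot replicate 3, which also had the highest acute phase median. Among the AKOC libraries the neutrophil sum was highest in replicate 1, and the acute phase median in replicate 2. Of 5 T and NK cell markers, 4 could be tested and all 4 had a negative log2 fold change (median -0.86), with sums of 5.90, 7.77 and 5.502 CPM after AKOC, and 7.90, 22.03 and 7.43 CPM in Quik-clot livers, highest in Quik-clot replicate 2. The globin gene Hba-a1 had 736, 402 and 450.6 CPM after AKOC, and 24.2, 104 and 517 CPM in Quik-clot livers. Hbb and Alas2, also made by red cell precursors, had log2 fold changes of 1.42 ± 0.97 and 1.17 ± 1.18 beside 1.30 ± 0.92 for Hba-a1. All 3 were lowest in Quik-clot replicate 1, the library with the highest Nr1i2, Nr1i3, Prox1 and Cebpa. The 6 stellate cell and fibroblast markers had 3 negative and 3 positive log2 fold changes (median 0.01). The part of any of these cells in the values of the members was not tested.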
